A study of Rattus norvegicus with 10 samples.

Results

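The genes described here are those of the major histocompatibility complex (MHC) class II pathway of the rat that make the molecule itself: the chains RT1-Da, RT1-Db1, RT1-Ba and RT1-Bb, the peptide-exchange chains RT1-DMa and RT1-DMb, the invariant chain Cd74 and the transactivator Ciita. They were chosen by name, and a probe was counted as a member where its RefSeq accession belongs to 1 of these symbols, which gave 8 genes with 10 probes among 15168 named genes and 30367 non-control probes on the array. RT1-Bb and RT1-Db1 had a pair of probes each, and every probe is shown. RNA was taken from whole submandibular glands, which make saliva, of males at 14 weeks of age. SHR, the spontaneously hypertensive inbred strain, gave 5 arrays, and the Wistar-Kyoto strain (WKY), its usual control with normal blood pressure, gave 5, each array from 1 rat; per the design text the strains were matched for age and weight. The labels name no treatment or engineered allele in either strain, so the groups differ by their whole genetic background. The arrays are named by strain and the pair of numbers in the sample title, such as SHR 3-3.

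MHC class II molecules are pairs of an alpha and a beta chain that carry peptides from endosomes to the cell surface and show them to CD4+ T cells. The invariant chain Cd74 escorts new pairs to the endosome and blocks the groove, and the DM chains exchange the last piece of it for other peptides. Ciita switches the genes on together from an enhanceosome of RFX, CREB and NF-Y factors bound to the X and Y boxes of their promoters, and interferon gamma induces Ciita; class II genes are expressed mainly by dendritic cells, macrophages and B cells. In RNA from whole gland, fewer cells of a type and less RNA per cell cannot be told apart.

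The X and Y boxes were looked up first, because they are the letters that class II genes share. The 300-base promoter windows of the RefSeq table (assembly GRCr8, 250 bases before to 50 after each start) held 6 of the 8 members, and RT1-DMb and Ciita were not in it. The X core was searched as GNNACNG and the Y box as ATTGG, on both strands, and a pair was counted where the Y box began 25 to 40 bases after the X core on the same strand. Such a pair was present in 5 of the 6 members, against 2.91% of all 33469 promoters, and in 2 of 3 other class II genes of the table. The X core alone is so short that 88.1% of promoters hold it, and 37.5% hold a Y box. With a longer form, the X core followed directly by ATG, the pair was present in 4 of the 6 members and in 20 promoters in all (0.0598%), among them 6 of class II genes, 4 of other RT1 genes and 10 of genes outside the RT1 group. These letters were shortened from the textbook X box after the sequences had been viewed, and a match is a description of letters, not a site shown to be bound. The 100 bases around the pair are printed for the 5 members, gene strand, with the X core and the Y box in capitals, because the members differ in the measured strain difference while sharing this layout.
RT1-Da: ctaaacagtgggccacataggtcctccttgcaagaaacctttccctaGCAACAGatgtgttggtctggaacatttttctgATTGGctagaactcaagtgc
RT1-Db1: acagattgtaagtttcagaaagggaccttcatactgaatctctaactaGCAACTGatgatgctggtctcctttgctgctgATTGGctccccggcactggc
RT1-Ba: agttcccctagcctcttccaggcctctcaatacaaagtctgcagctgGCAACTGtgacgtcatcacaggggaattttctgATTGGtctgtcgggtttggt
RT1-Bb: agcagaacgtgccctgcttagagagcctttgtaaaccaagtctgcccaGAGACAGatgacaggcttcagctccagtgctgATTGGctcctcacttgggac
RT1-DMa: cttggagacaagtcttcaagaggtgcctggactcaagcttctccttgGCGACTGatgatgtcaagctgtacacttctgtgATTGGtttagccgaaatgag

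These windows lie at chr20:4515286-4515385 on the plus strand for RT1-Da, chr20:4560223-4560322 on the minus strand for RT1-Db1, chr20:4576934-4577033 on the plus strand for RT1-Ba, chr20:4604160-4604259 on the minus strand for RT1-Bb and chr20:4712380-4712479 on the minus strand for RT1-DMa (GRCr8), all of them upstream of the first exon. The distance from X core to Y box was 32 bases in RT1-Bb and RT1-Db1 and 33 in RT1-Ba, RT1-Da and RT1-DMa. Alpha chain genes of the B and D molecules read on the plus strand and their beta chain genes on the minus strand. RT1-Db2 and RT1-DOb held the pair at 31 and 30 bases, and in Cd74 and RT1-DOa these letters were not found in that arrangement within the window. The reference genome is of another strain, so the promoters of SHR and WKY themselves were not read.

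**Figure D1:**
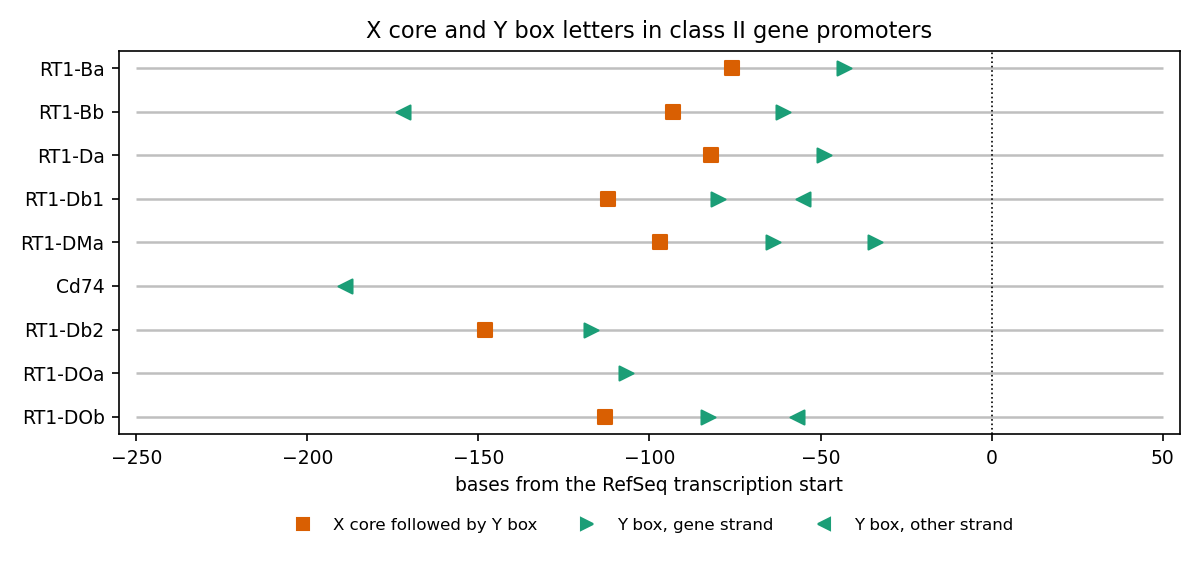
Position of the X core letters that are followed by a Y box (square) and of each Y box (triangle, pointing by strand) in the promoter windows of 6 members and 3 other class II genes; the x axis gives bases from the RefSeq transcription start. The square and the following triangle sit 30 to 33 bases apart in 7 of the 9 windows, and Cd74 and RT1-DOa have no square.

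Between 94.8% and 97.7% of the 42877 non-control spots of an array passed as well above background, and 0 were saturated. Values are log2 processed intensities minus the array's 75th percentile, which lay between 293 and 546, and the number of arrays limits their precision. By the scan times in the file headers, scan 1 held SHR 2-3, 3-1, 3-3 and 3-4, scan 2 held SHR 2-1 with WKY 1-5, 4-1 and 4-2, and scan 3 held WKY 1-2 and 1-3, so strain and scan overlap in scan 2 alone. SHR 3-3 had the lowest 75th percentile and stood apart from the other SHR arrays: 2.40% of all probes lay at least 2-fold below their mean, against 0.195% to 0.280% for each of the others. Member results that rest on it are therefore given with and without it. All 9 epithelial markers measured were well above background on all 10 arrays, but so were most spots, so passing says little about the tissue. Their level percentiles ran from 62.9 (Krt19) to 99.95 (Klk1), with Krt18 at 98.6, Egf at 98.1 and Aqp5 at 97.5.

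All 10 member probes were well above background on all 10 arrays, so none had to be kept through 1 strain alone. In the limma fit over 29266 kept probes, 5 of the 10 were lower in SHR with an adjusted p below 0.05 and 0 were higher, where 2.57% of all probes were called lower, 1.56% higher and 4.13% either way. Strains did not overlap for 6 probes, all lower in SHR, where 3.62% of all probes did not overlap with SHR lower and 3.56% with SHR higher. The 5 called probes belong to RT1-Da, RT1-Db1 (both), RT1-Bb (1 of its pair) and Ciita, and Cd74 was the sixth without overlap. The 4 other probes, of RT1-Ba, RT1-Bb, RT1-DMa and RT1-DMb, overlapped between strains. The median log2 difference over the 10 probes was -0.63, against -0.01 over all kept probes. Without SHR 3-3 the calls were 6 lower (2.85% of all probes) and 0 higher (1.79%), the median -0.58, and the probes without overlap 6 lower (5.16%) and 1 higher (4.28%). With the scan as a fixed block 1 probe was called lower (0.267% of all probes), and 6 of the probes still had a difference of -0.37 or lower.

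**Figure D2:**
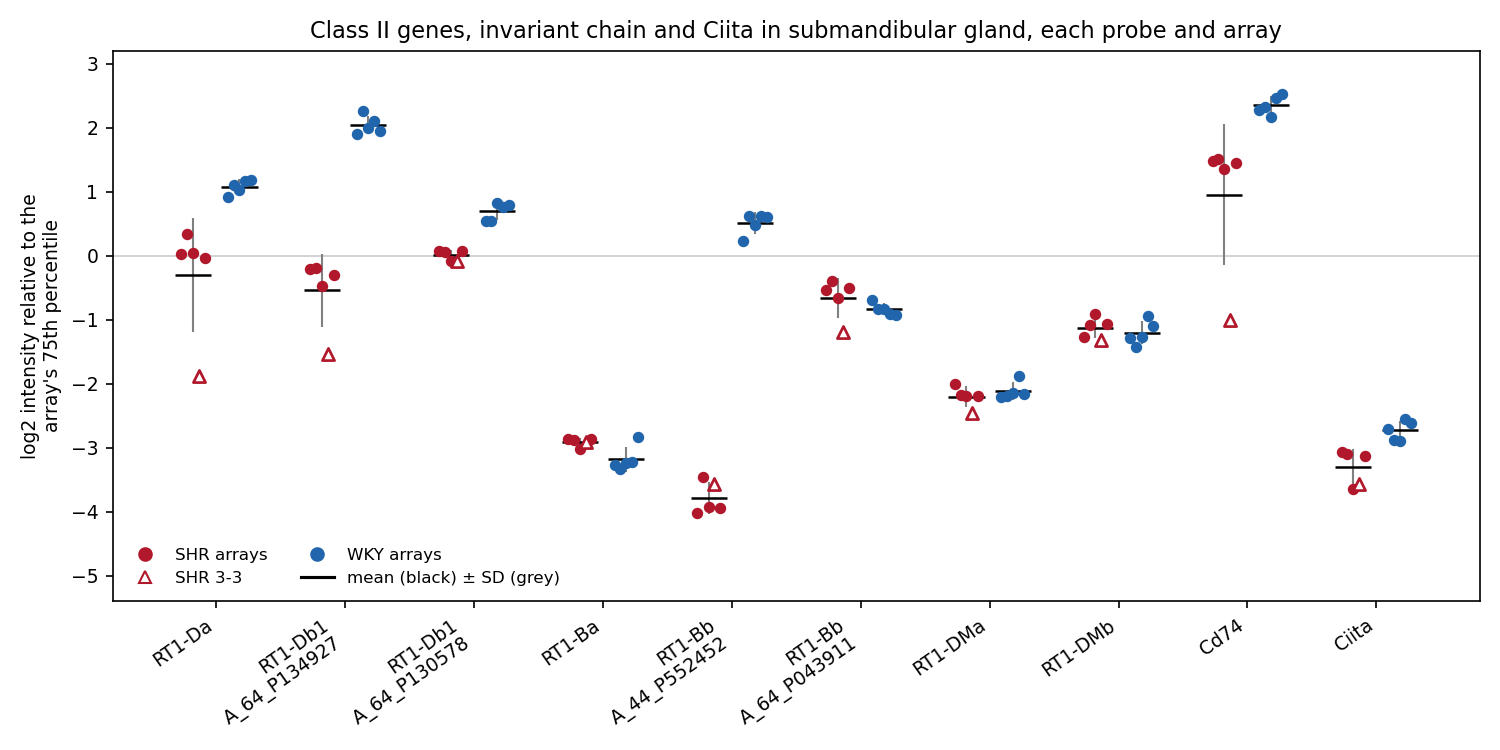
Log2 intensity relative to the array's 75th percentile (y axis) of each member probe (x axis) in the 5 SHR arrays (red, SHR 3-3 as an open triangle) and the 5 WKY arrays (blue); black lines are means and grey bars are SD. All red points lie below all blue points for RT1-Da, both RT1-Db1 probes, RT1-Bb A_44_P552452, Cd74 and Ciita, and SHR 3-3 is far below its strain for RT1-Da, RT1-Db1 A_64_P134927 and Cd74.

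RT1-Da encodes the alpha chain of the D molecule, the rat counterpart of mouse I-E and human HLA-DR. Its log2 value was 0.03 in SHR 2-1, 0.34 in 2-3, 0.04 in 3-1, -1.88 in 3-3 and -0.03 in 3-4. In WKY it was 0.91 in 1-2, 1.11 in 1-3, 1.02 in 1-5, 1.17 in 4-1 and 1.18 in 4-2. All WKY arrays were above all SHR arrays, and SHR 3-3 lay far below the other 4. The difference of SHR minus WKY was -1.38 ± 0.33 (SE, n = 5 and 5), a 2.60-fold lower level in SHR, with a limma adjusted p of 0.0385. Without SHR 3-3 the difference was -0.98 ± 0.10 and the adjusted p 0.000161. The call was lost when SHR 3-1, SHR 3-4 or any 1 of the 5 WKY arrays was left out. In these fits the adjusted p was up to 0.0933. It was also lost with the scan as a fixed block (-1.09 ± 0.65, adjusted p 0.9997) and within scan 2, where the difference was -1.09.

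RT1-Db1 encodes a beta chain of the same molecule and was measured by a pair of probes that both fell in SHR, by different amounts. Probe A_64_P134927 read -0.20 in SHR 2-1, -0.19 in 2-3, -0.48 in 3-1, -1.54 in 3-3 and -0.30 in 3-4, and in WKY 1.90 in 1-2, 2.26 in 1-3, 1.99 in 1-5, 2.10 in 4-1 and 1.94 in 4-2. Probe A_64_P130578 read 0.07, 0.06, -0.09, -0.08 and 0.07 in the same SHR order, and 0.54, 0.54, 0.82, 0.76 and 0.80 in the same WKY order. Both probes separated the strains completely, and SHR 3-3 was low on the first and among the other SHR arrays on the second. A_64_P134927 differed by -2.58 ± 0.22 (5.99-fold lower in SHR, limma adjusted p 3.0e-05), the 37th largest absolute difference of the 29266 probes. A_64_P130578 differed by -0.68 ± 0.09 (1.60-fold lower, limma adjusted p 0.000727). Without SHR 3-3 these were -2.33 and -0.66, and within scan 2, the 1 SHR array against 3 WKY arrays, -2.22 (adjusted p 0.00726) and -0.72 (adjusted p 0.185). RT1-Db2, a closely related beta chain gene beside RT1-Db1 on chromosome 20, had no probe by name, and whether the RT1-Db1 probes also bind its transcript was not tested.

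RT1-Bb encodes the beta chain of the B molecule, the counterpart of mouse I-A and human HLA-DQ, and its pair of probes gave opposite pictures. Probe A_44_P552452 had processed intensities of 24.5 to 49.6 in SHR and of 519 to 775 in WKY, where the lowest intensity called well above background on an array was 10.4 to 16.4. Its log2 values were -4.02 in SHR 2-1, -3.46 in 2-3, -3.92 in 3-1, -3.57 in 3-3 and -3.94 in 3-4, against 0.23, 0.61, 0.48, 0.62 and 0.60 in WKY 1-2, 1-3, 1-5, 4-1 and 4-2. The SHR arrays were thus near the floor of detection and SHR 3-3 was among the others of its strain. The difference was -4.29 ± 0.13, 19.6-fold lower in SHR with a limma adjusted p of 1.3e-09 and the 6th largest absolute difference of all kept probes. It was also called with the scan as a fixed block (-4.59, adjusted p 1.4e-05) and within scan 2 alone (-4.59, adjusted p 0.00060).

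The other RT1-Bb probe, A_64_P043911, read -0.54 in SHR 2-1, -0.40 in 2-3, -0.66 in 3-1, -1.19 in 3-3 and -0.51 in 3-4, and -0.69, -0.84, -0.83, -0.91 and -0.92 in WKY 1-2, 1-3, 1-5, 4-1 and 4-2. The 4 other SHR arrays were above all WKY arrays and SHR 3-3 was below them. The difference was 0.18 ± 0.13 (95% interval -0.11 to 0.47, limma adjusted p 0.484) and, without SHR 3-3, 0.31 ± 0.08 (adjusted p 0.0616). The probes of the pair are both assigned to RT1-Bb by the same accession, and which of them reports the level of the transcript in each strain cannot be read from the intensities.

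RT1-Ba encodes the alpha chain that pairs with RT1-Bb. RT1-Ba was faint, with processed intensities of 38.7 to 73.9 in SHR and 37.0 to 71.7 in WKY. Its single probe read -2.86 in SHR 2-1, -2.88 in 2-3, -3.02 in 3-1, -2.92 in 3-3 and -2.86 in 3-4, and in WKY -3.27 in 1-2, -3.34 in 1-3, -3.25 in 1-5, -3.23 in 4-1 and -2.84 in 4-2. All WKY arrays but 4-2 lay below all SHR arrays, and 4-2 lay above them. The difference was 0.27 ± 0.10 (95% interval 0.06 to 0.49, limma adjusted p 0.149). Without WKY 4-2 it was 0.36 with an adjusted p of 0.0334.

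The disagreement within a gene was set against the other genes. Of 2451 genes with at least 2 kept probes the median range between probes of the log2 strain difference was 0.17. The range was 4.47 for RT1-Bb, the largest of these genes, and 1.90 for RT1-Db1, the 9th largest. Within an array, A_44_P552452 minus A_64_P043911 was -3.12 ± 0.45 (SD, n = 5) in SHR, with a range of -3.48 to -2.38, and 1.35 ± 0.26 in WKY, with a range of 0.92 to 1.53. For RT1-Db1, A_64_P134927 minus A_64_P130578 was -0.55 ± 0.51 in SHR, from -1.46 to -0.25, and 1.35 ± 0.23 in WKY, from 1.15 to 1.72. In each gene the sign of the within-array difference was opposite in the strains in every array, and a two-sided exact permutation test over the arrays gave p = 0.00794 for both, the smallest that 5 arrays against 5 allow (0.00794 after adjustment over these 2 tests). Both genes were picked for this test after their values had been seen, so the p only restates the complete separation already seen. The files used here hold no probe sequences, so a difference between strains in the bases under a probe was not tested.

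**Figure D3:**
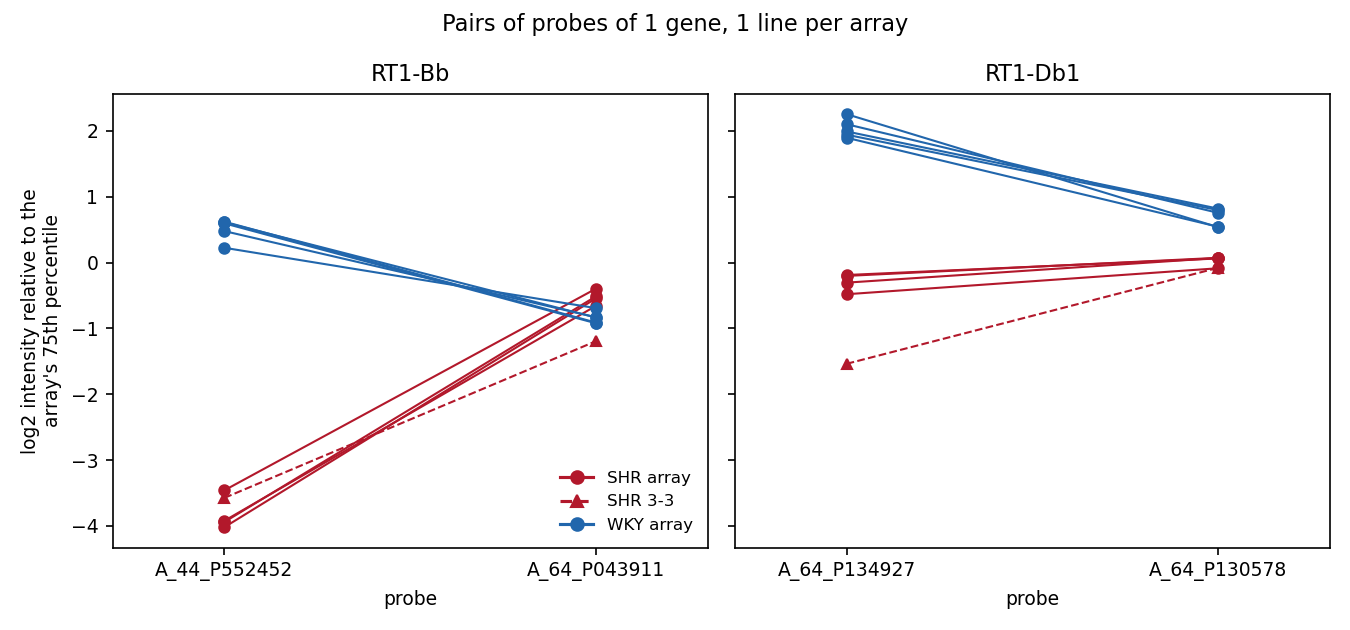
Log2 intensity relative to the array's 75th percentile (y axis) at the pair of probes of RT1-Bb (left) and RT1-Db1 (right), 1 line per array; SHR is red, SHR 3-3 dashed with triangles, WKY blue. The red lines rise from left to right and the blue lines fall in both panels, and in RT1-Bb the strains meet at A_64_P043911.

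The DM chains, which exchange peptides in the endosome, did not separate the strains. RT1-DMa read -2.0 in SHR 2-1, -2.18 in 2-3, -2.19 in 3-1, -2.46 in 3-3 and -2.19 in 3-4, against -2.21, -2.20, -2.14, -1.88 and -2.16 in WKY 1-2, 1-3, 1-5, 4-1 and 4-2. RT1-DMb read -1.27, -1.08, -0.92, -1.32 and -1.07 in the same SHR order and -1.28, -1.42, -1.27, -0.95 and -1.11 in the same WKY order. The strains overlapped at both probes. The differences were -0.09 ± 0.10 (95% interval -0.30 to 0.13, limma adjusted p 0.669) and 0.07 ± 0.11 (95% interval -0.16 to 0.31, limma adjusted p 0.744).

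Cd74, the invariant chain, read 1.48 in SHR 2-1, 1.50 in 2-3, 1.35 in 3-1, -1.01 in 3-3 and 1.45 in 3-4. In WKY it read 2.27 in 1-2, 2.32 in 1-3, 2.16 in 1-5, 2.46 in 4-1 and 2.53 in 4-2. All WKY arrays were above all SHR arrays, 4 of the SHR arrays lay close together, and SHR 3-3 lay far below them. The difference over all arrays was -1.39 ± 0.41 (2.63-fold lower in SHR, limma adjusted p 0.0770) and did not pass the threshold. Without SHR 3-3 it was smaller and much less variable, -0.90 ± 0.09 with an adjusted p of 0.000175. The mean of the other SHR arrays was 1.44 ± 0.07 (SD, n = 4) and that of WKY 2.35 ± 0.15 (SD, n = 5).

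Ciita, the transactivator on which the other members depend, was faint but above background on every array. It read -3.06 in SHR 2-1, -3.10 in 2-3, -3.65 in 3-1, -3.56 in 3-3 and -3.14 in 3-4, and -2.71, -2.88, -2.90, -2.56 and -2.61 in WKY 1-2, 1-3, 1-5, 4-1 and 4-2. The strains did not overlap, and SHR 2-1 and WKY 1-5 were the arrays nearest to each other. The difference was -0.57 ± 0.13 (1.49-fold lower in SHR, limma adjusted p 0.0324) and without SHR 3-3 -0.51 ± 0.13 (adjusted p 0.0497). The call was lost when SHR 3-1, WKY 1-2, WKY 1-3, WKY 4-1 or WKY 4-2 was left out. It was also lost with normexp background correction (-0.23, adjusted p 0.101) and with the scan as a fixed block (-0.37 ± 0.24, adjusted p 0.9997). Within scan 2, where the difference was -0.37, it was lost too.

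**Figure D4:**
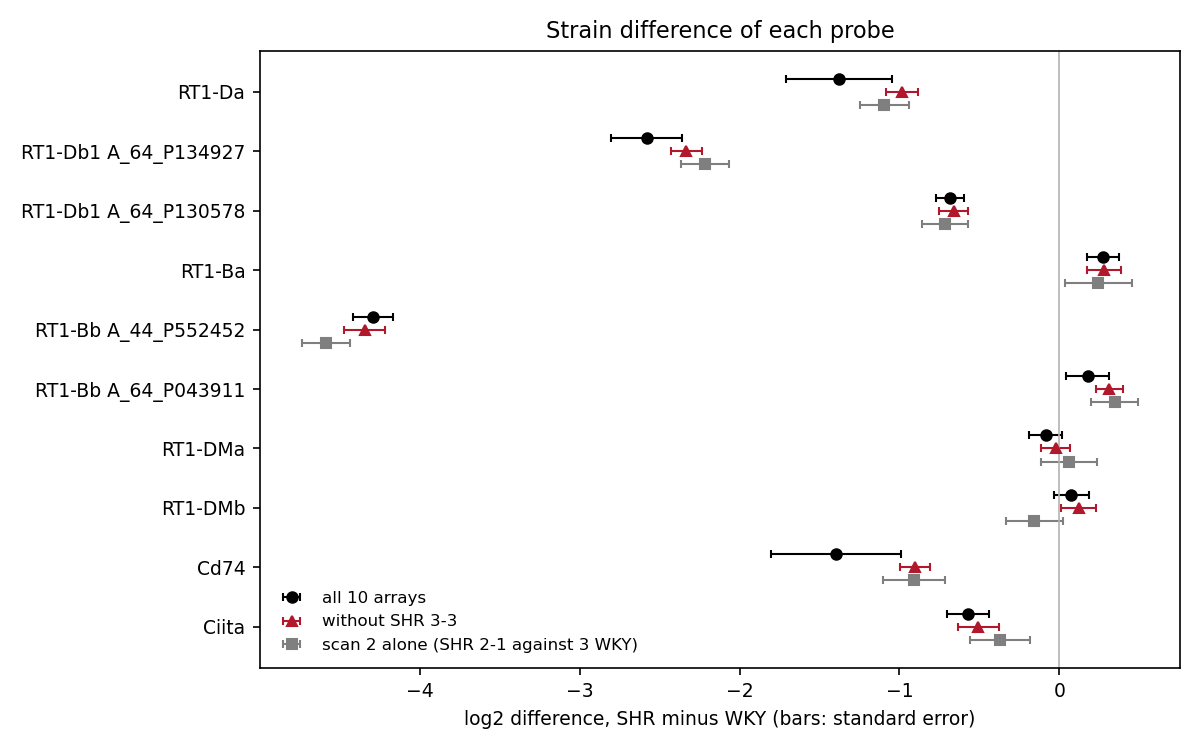
Log2 difference of SHR minus WKY (x axis, bars are standard errors) of each member probe over all 10 arrays (black), without SHR 3-3 (red) and within scan 2 alone (grey, SHR 2-1 against 3 WKY arrays). The 3 estimates lie on the same side of 0 for 8 of the 10 probes; RT1-DMa and RT1-DMb cross it, and RT1-Bb A_44_P552452 is the farthest from 0.

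The members did not move alike in SHR 3-3. Against the mean of the other 4 SHR arrays, Cd74 stood at -2.45 there (5.47-fold lower), RT1-Da at -1.97 (3.92-fold lower) and RT1-Db1 A_64_P134927 at -1.24 (2.37-fold lower). These 3 of the 10 probes were the ones at least 2-fold lower. RT1-Bb A_64_P043911 stood at -0.67, Ciita and RT1-DMa at -0.32, RT1-DMb at -0.23, RT1-Db1 A_64_P130578 at -0.11 and RT1-Ba at -0.01, while RT1-Bb A_44_P552452 stood at 0.26. In total 9 of the 10 probes lay below the mean of the remaining SHR arrays, though for Ciita, RT1-Ba and RT1-Db1 A_64_P130578 SHR 3-1 was lower still. For each other SHR array, 0 of the 10 probes lay at least 2-fold below the rest of the strain.

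Markers of cells that carry class II molecules were read beside these values. Macrophage markers were also low in SHR 3-3, 15 of 16 lying below the mean of the remaining SHR arrays with a median of -0.92. The 8 general leukocyte genes were split. Their median was -0.81 and 5 lay below that mean, while Cd37 (0.24), Laptm5 (0.16) and Lcp1 (0.12) lay above it. Dendritic cell, B cell and T cell markers had medians of -0.17, 0.04 and 0.05. Some genes outside the immune lists were low there too. Of 9 epithelial markers 5 lay below the mean of the remaining SHR arrays, with a median of -0.26. Egf, Krt19 and Krt8 were the lowest of them, at -4.35, -1.37 and -0.62, and Aqp5 was the highest, at 0.39. Of 12 endosomal processing genes 10 lay below the mean of the remaining SHR arrays, with a median of -0.76. The part of any of these cells in the low Cd74, RT1-Da and RT1-Db1 values of SHR 3-3 was not tested.

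**Figure D5:**
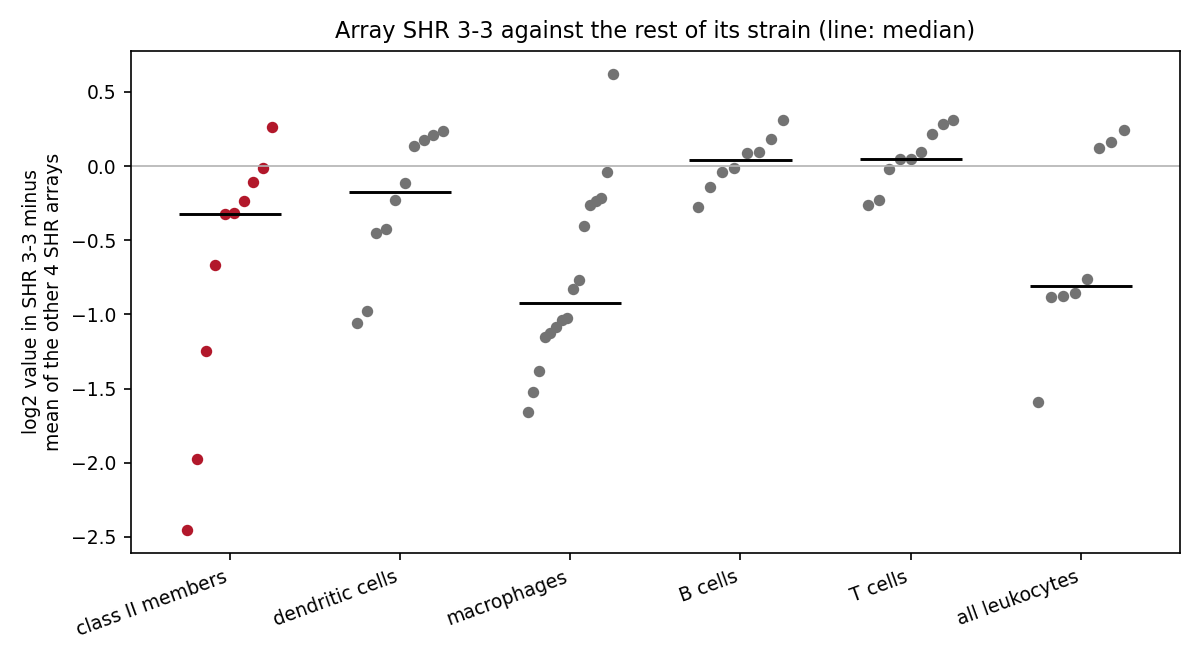
Log2 value in SHR 3-3 minus the mean of the other 4 SHR arrays (y axis) for the 10 class II member probes (red) and the genes of 5 marker lists (grey, 1 point per gene); black lines are medians. The 3 lowest red points, from -2.45 to -1.24, are Cd74, RT1-Da and RT1-Db1 A_64_P134927. The macrophage and leukocyte medians lie at -0.92 and -0.81, with 5 of the 8 leukocyte genes below 0, while the medians of B and T cells lie near 0.

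Between the strains, 3 of 16 macrophage markers were called lower in SHR and 0 higher, where 2.71% of the 14711 named genes tested (brightest probe of each) were called lower and 1.70% higher. These were Fcer1g (-1.16 ± 0.21, limma adjusted p 0.00951), a signalling chain of Fc receptors, the lysosomal protein gene Cd68 (-0.96 ± 0.17, adjusted p 0.00749) and Aif1 (-0.79 ± 0.19, adjusted p 0.0371, lost when any of 6 arrays was left out). The macrophage list had a median of -0.43 with and -0.25 without SHR 3-3, where 4 were called lower. Its summed level, the log2 of the sum of the genes' unlogged values, was 4.32 in SHR 3-3. It was 5.22 to 5.64 in the other SHR arrays and 5.16 to 5.84 in WKY. In this sum the brightest probe, that of Lyz2 (difference -0.04 ± 0.29), weighs most. The difference was negative for 15 of the 16. With the scan as a fixed block 0 macrophage and 0 leukocyte markers were called, with Fcer1g at -0.93 (adjusted p 0.946) and Cd68 at -0.79 (adjusted p 0.845). Of the leukocyte genes, 1 of 8 was called, Ptprc (-0.69 ± 0.17, adjusted p 0.0460, lost when any of 8 arrays was left out), with summed levels of 4.79 to 5.05 in SHR and 4.58 to 5.04 in WKY, led by the bright probe of Lcp1 (0.14 ± 0.12). Without SHR 3-3 Cd53 was called as well (-0.74, adjusted p 0.00570). Dendritic cell markers had 0 of 10 called (median -0.09, summed levels 2.13 to 2.56 in SHR and 2.49 to 2.71 in WKY), B cell markers 0 of 8 (median -0.07, 1.00 to 1.21 and 1.14 to 1.25) and T cell markers 0 of 9 (median -0.02, 2.34 to 2.74 and 2.56 to 2.89). Itgax, Flt3, Siglech, Ms4a1 and Cd79a, which define dendritic and B cells, were not on the array by name. The part of these cells in the strain differences of the members was not tested.

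Most genes in the rest of the pathway were not called. Over 51 other genes of class II transcription, interferon gamma input, endosomal processing, surface turnover and co-stimulation, each by its brightest probe, 4 were called lower in SHR and 0 higher, and the median difference was -0.03 against -0.0040 over all genes. Leaving out 1 array at a time gave 1 to 4 lower and 0 to 1 higher, and with the scan as a fixed block 0 were called lower. The other class II genes had 0 of 3 called, with RT1-DOb at 0.14 ± 0.08 and RT1-DOa, its partner in the DO molecule that restrains DM, at -0.10 ± 0.17 (adjusted p 0.336 and 0.790).

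Among 13 transcription factors of the class II genes 1 was called lower and 0 higher, and of 13 genes of interferon gamma input 3 were called lower and 0 higher. Ifngr2, a chain of the interferon gamma receptor, differed by -0.47 ± 0.09 (limma adjusted p 0.0118) and passed in every leave-one-out fit, and Gbp2, a GTPase induced by interferon, by -0.82 ± 0.20 (adjusted p 0.0438, lost when any of 6 arrays was left out). Of 12 endosomal genes 1 was lower, the cathepsin inhibitor Cst3, at -0.82 ± 0.20 (adjusted p 0.0379, lost when any of 6 arrays was left out).

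Surface turnover and co-stimulation had 0 of 4 and 0 of 8 called. As values, Cd83, which steadies class II at the surface, stood at -0.40 ± 0.39 (adjusted p 0.601). Cd274, an inhibitory ligand, stood at 0.28 ± 0.09 (adjusted p 0.113), and Cd86, a co-stimulatory ligand, at -0.22 ± 0.16 (adjusted p 0.470).

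Variation within the strains was followed across the arrays after each strain's mean had been removed. Over 10 arrays Cd74 and RT1-Da had a Pearson r of 0.99, RT1-Da and RT1-Db1 A_64_P134927 of 0.96, and Cd74 and RT1-Db1 A_64_P134927 of 0.95. Without SHR 3-3 these were 0.60, 0.44 and 0.25 over 9 arrays, so SHR 3-3 sets most of this likeness. The points share their array, its scaling and its scan.

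A member score, the mean of the centred values of the 8 genes, ran from -0.72 in SHR 3-3 to 0.26 in SHR 2-3. Among 14673 other genes the most alike over 10 arrays were Mmp11 (r 0.99), Mmp2 (0.99), Klra5 (0.99), Tmem176a (0.98), Cd200 (0.98), Myo7a (0.98), Or4c1 (0.98), Nrip3 (0.98), Or1ad5 (0.98) and Capg (0.98). All of them were more than 2-fold lower in SHR 3-3 than in the other SHR arrays on average. Without that array the 10 most alike genes, led by Tmem107 (r 0.99) and Tfpt (0.98), shared 0 genes with these. The genes named first had r from 0.59 (Capg) to 0.91 (Mmp11) without it, where the median over all candidate genes was 0.14. They had been picked with these 9 arrays included, so those values are not independent of the choice. In all, 228 genes had an r of at least 0.9 over the 10 arrays.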

How the data were processed

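Cy3-labelled cRNA from 10 glands was hybridised to one-colour Agilent arrays, per the labels. Per the file headers, Agilent Feature Extraction 11.0.1.1 (protocol GE1_1100_Jul11) gave the authors' processed intensity, background-subtracted and detrended but not scaled between arrays. The authors' deposited log2 values, an alternative here, share 1 median (7.19) and 75th percentile (8.79) per array; the sources used here do not say how they were made. The array was designed on rn4, so no gene coordinates are given, and GRCr8 gave names and promoters only.

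From each array's log2 intensities their 75th percentile over non-control probes was subtracted. Outlier-marked spots were dropped, repeated spots averaged, and probes kept that were well above background on at least 5 of 10 arrays (29266 of 30367). Accessions gave 18005 probes 1 symbol, 0 several and 12362 none. Strains were compared by limma (lmFit, eBayes, two-sided, no covariate) with Benjamini-Hochberg adjustment over all kept probes and a threshold of 0.05, which "called" refers to; errors are limma's standard errors unless named SD. List genes are represented by their brightest kept probe. Named are all member probes and, per list, up to 4 called genes with the largest differences, or up to 2 as values where none was called; some list genes under this rule enter the counts without being reported here. The members and lists were chosen with earlier results of these data known. Title numbers are not shared between strains and pair no samples.

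Alternatives were normexp with quantile normalisation (on the median signal, since the planned mean signal column is not in the files), quantile normalisation alone, median scaling, the deposited log2 values, no filter on dim probes or a filter on all arrays, 1 value per gene, weights per array, robust variances with an intensity trend, the scan (fixed block, random block, scan 2 alone), a random block by first title number, and each array left out. The probe-pair test and the likeness without SHR 3-3 were added after the values were seen. On simulated data for SHR minus WKY over 29266 probes, 38% of 50 probes changed by 0.5 log2 were recovered. Of those changed by 1, 2 and 4, the shares were 92%, 98% and 100%, and 15 of 179 calls were false. The simulated noise was normal and independent between arrays and probes, with no scan effect and no array standing apart like SHR 3-3. These shares are thus not the power of the real comparison, in which strain and scan overlap in scan 2 alone. Tools were R 4.3.3 with limma 3.58.1 and the data.table package (1.17.8), and Python 3.11.15 with pandas 2.3.3, numpy 2.4.6 and matplotlib 3.10.9.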

Additional observations from a re-analysis of the deposited data

Results flagged for a closer look

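In groups of 5 arrays, 1 array was taken as standing apart where its gap to the nearest other array exceeded 0.71 of the group's whole range (Dixon's 95% value). This held for 5 of the 20 groups of a probe and a strain, where about 1 in 20 is reached by chance.

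SHR 3-3 lay below the other SHR arrays for Cd74 (gap 0.937 of the range), RT1-Da (0.831) and RT1-Db1 probe A_64_P134927 (0.783). All 3 probes had their lowest value of the 10 arrays there. WKY 4-2 lay above the other WKY arrays for RT1-Ba (0.777), and WKY 4-1 above the other WKY arrays for RT1-DMa (0.804). The causes were not tested.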

How the results depend on the processing

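Over 24 alternatives, 204 of 236 pairs of a probe and an alternative kept the direction and the side of the threshold. RT1-Bb A_44_P552452 was called in all 22 it had a value in, with differences from -4.59 to -2.89. The count of 5 member probes called lower became 3 with the brightest probe per gene, 1 with the scan as a fixed block and 2 within scan 2, and 3 to 6 on leaving out 1 array (3 without SHR 3-1, WKY 1-2, 1-3, 4-1 or 4-2, each of which loses RT1-Da and Ciita). The count called higher became 1 with the scan as a random block and 0 to 1 on leaving out 1 array, in both cases RT1-Ba (0.25 with the block, 0.36 without WKY 4-2). Beyond the fixed block and the fit without SHR 3-3, the share of all probes called under an alternative is not given here. Counts under those other alternatives are thus not a result about the members. The median of -0.63 became -0.42 with normexp, -0.33 with the brightest probe and -0.97 with the mean of probes per gene, and -0.66 to -0.57 on leaving out 1 array.

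Of the pathway genes, 0 were called lower with the scan as a fixed block and within scan 2, 8 with the scan as a random block, and 1 to 4 on leaving out 1 array. Called higher were 1 with quantile normalisation, with the authors' values and with the first title number as a block, 3 with the scan as a random block, and 0 to 1 on leaving out 1 array. Shares over all genes under these alternatives are not given here, so these counts are not a result about the pathway. The sign turned for RT1-DMa (0.061) and RT1-DMb (-0.16) with the scan as a fixed block and within scan 2, and for RT1-Bb A_64_P043911 (-2.06) where its value was averaged with that of the other probe. RT1-Da was not called with an intensity trend and robust variances (adjusted p 0.0653), and neither RT1-Db1 probe with the scan as a fixed block (0.0727 and 0.0860). With that block RT1-Da, Ciita and Cd74 had an adjusted p of 0.9997 each. Cd74 passed with array weights (adjusted p 0.0270), the scan (0.00677) or the title number (0.0291) as a random block, and without SHR 3-3. The random blocks had negative correlations (-0.17 for scan, -0.12 for title number). The fixed-block and scan 2 fits compare strains through 1 SHR array and 3 WKY arrays. Within scan 2 alone the lone SHR array is assumed to vary like the WKY arrays. The fixed block takes its spread from the arrays of every scan, SHR 3-3 among them. The random-block fit also compares strains between scans. No paired analysis was possible because the strains share no title number. Background handling bears on the dim members: with normexp RT1-Bb A_44_P552452 moved to -2.89, RT1-Ba to 0.15 and Ciita to -0.23 (adjusted p 0.101). Other causes were not tested.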
